A study of Mus musculus with 18 samples.

Results

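Microglia are the resident macrophages of the brain. Of the 10 genes described here, all but B2m are used as their markers or serve their best-known functions. The 10 are C1qa, C1qb, C1qc, Csf1r, Tyrobp, Ctss, Trem2, Aif1, Cd68 and B2m. They were followed in RNA of the mouse cochlear nucleus, the brainstem nucleus that receives the auditory nerve, through 15 probe sets chosen by their identifiers out of the 22690 on the oligonucleotide array. The tissue was taken, as the labels have it, from mice of the strain C57BL/6J at postnatal day 7 (P7, 3 arrays), day 14 (P14, 2 arrays) and day 21 (P21, 3 arrays). The labels name no transgene or treatment, and each array was hybridised with RNA from 5 pooled pups, so an array averages over animals. The labels do not say that every pool came from other litters, and the p-values below measure the spread between these arrays. The deposited table pairs no probe set with a gene, and the gene of each of the 15 probe sets is the one given with the selection.

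Microglia depend on signals through the receptor Csf1r for their survival. They make most of the C1q of the brain, the first component of the classical complement pathway, which tags synapses and cell debris for removal. Trem2 is a surface receptor that signals through the adaptor Tyrobp, and the lysosome, where Ctss and Cd68 act, degrades what the cells take up. The genes are also active in other macrophages and in blood monocytes, and B2m is made by nearly every cell. RNA of a whole nucleus cannot tell fewer cells of a type from less RNA per cell, and 22 lists of marker and pathway genes, other cell types included, were not run because no table at hand names their probe sets. So neither the purity of the dissected tissue nor the presence of other macrophages was checked against markers.

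The promoters below belong to the gene called over the whole period (Ctss), the gene highest on both P14 arrays (Trem2) and 2 C1q genes. C1qb, C1qc and C1qa follow each other on the chromosome in RefSeq. Capitals mark GAGGAA on either strand, the core of the PU box bound by the macrophage transcription factor PU.1. Each stretch is read from RefSeq (GRCm38.p6), runs 5' to 3' towards the gene and ends at the last base before it. C1qa and Tyrobp had no entry in the promoter table, and the promoter of Csf1r was not used here.
C1qb, chr4:136886201-136886450, minus strand: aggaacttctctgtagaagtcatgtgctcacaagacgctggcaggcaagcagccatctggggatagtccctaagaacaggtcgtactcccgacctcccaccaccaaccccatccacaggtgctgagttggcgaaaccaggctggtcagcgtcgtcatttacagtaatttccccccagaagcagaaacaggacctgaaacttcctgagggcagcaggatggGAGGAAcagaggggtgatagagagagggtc
C1qc, chr4:136892937-136893164, minus strand: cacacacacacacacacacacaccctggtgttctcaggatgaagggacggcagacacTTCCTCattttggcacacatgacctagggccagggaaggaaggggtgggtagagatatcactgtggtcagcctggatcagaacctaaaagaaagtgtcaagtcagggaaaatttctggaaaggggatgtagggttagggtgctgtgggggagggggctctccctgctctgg
Ctss, chr3:95526536-95526785, plus strand: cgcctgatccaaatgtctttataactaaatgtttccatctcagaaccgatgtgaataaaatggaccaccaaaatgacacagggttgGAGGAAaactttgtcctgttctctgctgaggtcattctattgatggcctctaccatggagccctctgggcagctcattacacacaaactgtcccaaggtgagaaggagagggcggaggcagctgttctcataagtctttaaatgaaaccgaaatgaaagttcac
Trem2, chr17:48346151-48346400, plus strand: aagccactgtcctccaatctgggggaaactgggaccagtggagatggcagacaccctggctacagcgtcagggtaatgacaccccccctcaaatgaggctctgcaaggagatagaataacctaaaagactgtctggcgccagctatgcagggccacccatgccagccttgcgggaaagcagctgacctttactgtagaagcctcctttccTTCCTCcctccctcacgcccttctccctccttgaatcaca

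Within the 250 bases before the transcript start, GAGGAA was found in 6 of the 7 genes looked at, Ctss, C1qb, C1qc, Cd68, Aif1 and Trem2, and not in B2m. It was found in 23.3% of all 32851 promoters of the table. In Aif1 the match lies in the stretch that an earlier annotated start already covers. The longer GAGGAAGT, which contains it, was found in C1qc only among the 7 and in 2.44% of all promoters. The ETS core GGAAGT was found in C1qb and C1qc (19.7% of all). In C1qc it is part of GAGGAAGT, and in C1qb it lies apart from the marked GAGGAA. The AP-1 site TGACTCA was found in Cd68 (4.46% of all), and the string TATAAA of the TATA box in B2m and Ctss (12.4% of all). All strings were searched on either strand. In B2m and Ctss TATAAA was found only on the strand opposite to the gene, so it does not read towards the gene. The exact string misses variants, such as TATATAAG, which B2m has on its own strand. Such a match is a string of letters and not a shown binding site.

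Signals are intensities per probe set, brought to the same trimmed mean of 250.1 on every array, and levels of different probe sets cannot be compared. Changes are differences of log2(signal + 12.5) from 1 limma fit over 15296 probe sets, and a probe set is called where its adjusted p is under 0.05. Probe sets with a mean signal under 50.0 over the 8 arrays were not tested, which left out Trem2 and the B2m probe set 1427511_at and kept 13 of the 15. Few of these probe sets were called. Of the 13, 1 was called between P7 and P14, Csf1r by 1 of its probe sets, which was higher, where limma called 29.6% of all probe sets tested (12.9% higher). Between P14 and P21 limma called 0 of the 13 and 2.05% of all, and 1 of the 13 had an unadjusted p under 0.05, as had 19.4% of all. Between P7 and P21 limma called 1 of the 13, Ctss, which was higher, and 38.6% of all (17.1% higher).

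The median change of the members was smaller than that of the array. The median absolute log2 change of the 13 was 0.21 from P7 to P14, 0.16 from P14 to P21 and 0.20 from P7 to P21, against 0.30, 0.19 and 0.32 over all probe sets tested. The median SE for the change from P7 to P21 was 0.18 for the 13 and 0.15 over all, a slightly larger error for the members. In sign, 11 of the 13 changes from P7 to P14 were positive, against 42.8% of all probe sets tested. The 2 negative ones were the tested B2m probe sets (-0.20 and -0.16). The median of the 13 was 0.21 (-0.07 over all). Without P14 replicate 2, 8 were positive with a median of 0.07, and without P14 replicate 1, 11 with a median of 0.47. From P7 to P21 again 11 were positive, against 48.4% of all, with a median of 0.20 (-0.02 over all). There the negative ones were Tyrobp (-0.01) and Cd68 (-0.11). Without P7 replicate 1 the count of positive changes was 10 and the median 0.12. Without P21 replicate 3 it was 13 with a median of 0.29, and without P7 replicate 3 it was 12 with 0.15. Both comparisons share the P7 arrays, and among the 13 several probe sets read the same gene (Csf1r, C1qb and B2m). From P14 to P21, 4 of 13 were positive, against 55.1% of all, with a median of -0.04 (0.03 over all). That median turned positive without P14 replicate 2 (9 of 13, 0.10) and without P21 replicate 3 (7 of 13, 0.011).

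**Figure D1:**
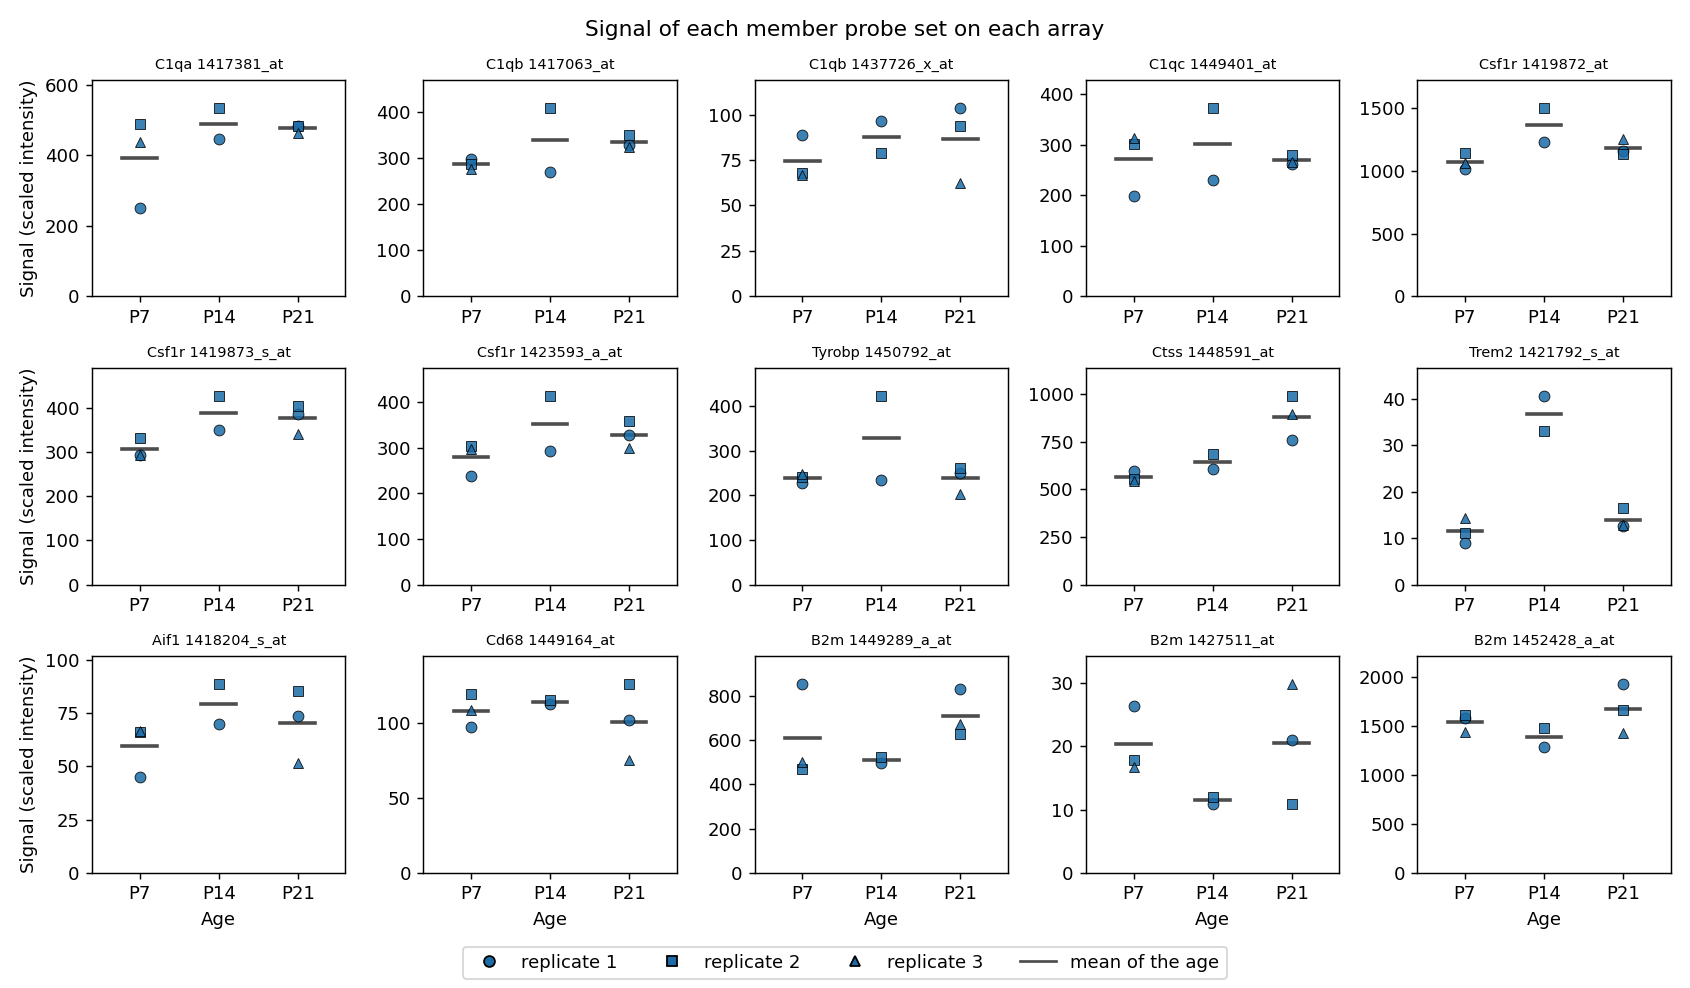
Signal (scaled intensity, linear axis from 0) of the 15 probe sets on each array at P7, P14 and P21; each symbol is 1 array, its shape gives the replicate number and the bar is the mean of the age. Ctss rises to its highest values at P21, Trem2 is high on both P14 arrays only (40.6 and 33.0), and in several panels, Tyrobp among them, the P14 arrays lie far apart (236 and 423).

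C1q begins the classical pathway of complement, and its genes are taken first. C1qa (1417381_at), which encodes the A chain of C1q, had signals of 252, 489 and 438 at P7, 446 and 535 at P14, and 485, 485 and 463 at P21. P7 replicate 1 is low and the other 7 arrays lie close together, with overlap between the ages. The log2 change from P7 to P21 was 0.32 (SE 0.20, 95% interval -0.13 to 0.78, limma adjusted p = 0.237). From P7 to P14 it was 0.36 (SE 0.23, adjusted p = 0.268) and from P14 to P21 -0.03 (SE 0.23, adjusted p = 0.956).

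C1qb, the gene of the B chain, was read by 2 probe sets. The brighter one, 1417063_at, gave 297, 286 and 275 at P7, 269 and 408 at P14, and 328, 350.3 and 324 at P21. The P21 arrays all lie above the P7 arrays, while the P14 arrays fall on either side of both. The change from P7 to P21 was 0.22 (SE 0.14, 95% interval -0.10 to 0.53, limma adjusted p = 0.259). The dimmer 1437726_x_at ran from 62.5 to 103.6 over all arrays with overlap at every age, and its change from P7 to P21 was 0.17 (SE 0.20, adjusted p = 0.532). The suffix _x marks a probe set with probes that may also match other transcripts. On the P14 arrays the C1qb probe sets went opposite ways: replicate 2 was the higher for 1417063_at and the lower for 1437726_x_at (78.6 against 96.2).

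C1qc (1449401_at), the gene of the C chain, had signals of 199, 302 and 314 at P7, 229 and 373 at P14, and 262, 280.1 and 265 at P21. The highest and the lowest arrays belong to P14 and P7, and the P21 arrays lie between them. The change from P7 to P21 was 0.01 (SE 0.20, limma adjusted p = 0.962), with a 95% interval from -0.43 to 0.46, so a change of up to 1.37-fold upward lies inside it. The 3 chains assemble into 1 protein, and for none of their 4 probe sets was any comparison of ages called.

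Csf1r, the receptor for the colony-stimulating factor of macrophages, was the gene called between P7 and P14 among the 13 tested probe sets. Its brightest probe set, 1419872_at, had signals of 1014, 1145 and 1064 at P7, 1233 and 1504 at P14, and 1158, 1137 and 1253 at P21. Both P14 arrays lie above all P7 arrays, and P21 overlaps P14. The log2 change from P7 to P14 was 0.34 (SE 0.11, limma adjusted p = 0.0432), a rise of 1.27-fold with a 95% interval of 1.07 to 1.505. The other probe sets gave changes of like size, 0.33 (SE 0.13, adjusted p = 0.0888) for 1419873_s_at and 0.31 (SE 0.17, adjusted p = 0.197) for 1423593_a_at, and neither was called.

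The Csf1r call was not firm. It was lost in 9 of 18 alternative settings, among them quantile normalization (0.26, limma adjusted p = 0.101) and the fit with no filter (0.34, 0.0563). Of those that kept it, no rescaling and leaving out a P21 array could hardly move the change (0.34). Without P14 replicate 2 the change was 0.20 (adjusted p = 0.349), and without P7 replicates 1, 2 or 3 in turn 0.30, 0.39 and 0.33 (adjusted p 0.1002, 0.0557 and 0.0978). From P7 to P21 the changes of the Csf1r probe sets were 0.14 (SE 0.10), 0.29 (SE 0.12) and 0.23 (SE 0.15), with adjusted p of 0.306, 0.0771 and 0.262. The middle one, 1419873_s_at, had all P21 arrays above all P7 arrays (341 to 403 against 292 to 333) and was called after quantile normalization (0.35, adjusted p = 0.0401).

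Tyrobp (1450792_at) encodes DAP12, an adaptor with which Trem2 and other receptors signal. Its signals were 228, 242 and 248 at P7, 236 and 423 at P14, and 249.5, 261 and 204 at P21. A lone array, P14 replicate 2, stands far above the other 7. The change from P7 to P14 was 0.38 (SE 0.21, limma adjusted p = 0.197). It was -0.02 (adjusted p = 0.954) without P14 replicate 2 and 0.79 (adjusted p = 0.0181) without P14 replicate 1, where the spread of the single P14 array left was taken from the other groups. From P7 to P21 the change was -0.01 (SE 0.19, 95% interval -0.43 to 0.40, adjusted p = 0.964).

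Trem2 (1421792_s_at), the receptor, had a shape no other member showed. Its signals were 9.0, 11.2 and 14.3 at P7, 40.6 and 33.0 at P14, and 12.7, 16.4 and 12.9 at P21. Both P14 arrays lie above all arrays of the other ages, which holds for 4.18% of all 22626 probe sets other than controls. The probe set is dim, with a mean signal of 18.8, and was tested only in the fit with no filter. There the log2 change from P7 to P14 was 1.04 (SE 0.19, limma adjusted p = 0.00486), where 18.8% of probe sets were called. The P7 signals lie below the highest bacterial control absent from the sample of their array (23.6 to 49.1), so no fold is given. The size of the fitted change is set by the pseudocount, at 1.5 with 2.501 and 0.50 with 50.01.

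In 16 alternative settings of that fit, all added after the data were seen, the adjusted p of the Trem2 rise ran from 0.00241 to 0.0479. With no rescaling, or with a P21 array left out, that rise stayed at 1.04. From P14 to P21 the change was -0.89 (SE 0.19, limma adjusted p = 0.069), which was not called, and 0.482% of probe sets were. From P7 to P21 it was 0.15 (SE 0.17, adjusted p = 0.58), where 26.1% were called. With the same limit, the second interval's change minus that of the first was -1.93 (SE 0.33, limma adjusted p = 0.0211), where 3.87% of probe sets were called with no filter, and ran from -2.75 to -0.94 with the smaller and the larger pseudocount. That call was lost with the replicate block (-1.99, adjusted p = 0.0509), with the poly-A control block (-2.02, 0.118) and without P14 replicate 1 (-1.71, 0.159) or P14 replicate 2 (-2.16, 0.124).

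How far the dim Trem2 signal can be trusted was set against bacterial controls. Each array carries probe sets for bacterial poly-A transcripts that were not found in its sample, 21 on most arrays and 24 on P21 replicate 3. The highest of these had signals of 17.6 and 26.0 on the P14 arrays, below Trem2 there, and 23.6 to 49.1 on the other 6 arrays, above Trem2 there. Their medians were 3.10 to 8.25. The signals of Trem2 at P7 and P21 are therefore within the range of probe sets whose transcript was not found, and those at P14 lie above that range on their own arrays but below its top on P7 replicate 1 and P21 replicate 3.

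**Figure D2:**
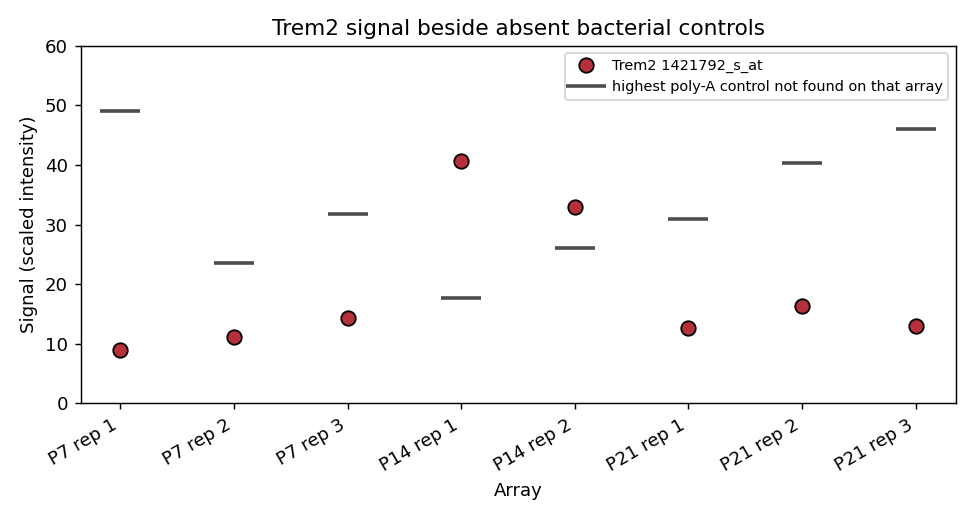
Signal (scaled intensity) of the Trem2 probe set 1421792_s_at on each of the 8 arrays (red points) and the highest signal among bacterial poly-A controls not found on that array (grey dashes). The points exceed the dashes on the P14 arrays (40.6 against 17.6 and 33.0 against 26.0) and lie below them on the other 6.

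Ctss (1448591_at) encodes cathepsin S, a lysosomal protease of macrophages that also trims the invariant chain of class II antigen presentation. It had the clearest change over the whole period, and its signals were 595, 556 and 544 at P7, 604 and 686 at P14, and 759, 988 and 894 at P21. The ages do not overlap at any step: every P14 array is above every P7 array and every P21 array above every P14 array. Over all probe sets tested, 58.9% did not overlap between P7 and P14 and 38.1% between P14 and P21. The share that rose without overlap at both steps was not computed. The log2 change from P7 to P21 was 0.62 (SE 0.11, limma adjusted p = 0.0016), a rise of 1.54-fold with a 95% interval of 1.29 to 1.83. Of the 18 alternative settings, no rescaling and leaving out a P14 array could hardly move the change (0.62). The change was called in 17 of the 18. The exception was the fit that takes the poly-A control found on each array as a block, in which the change was 0.40 (adjusted p = 0.17). In that fit P21 replicates 2 and 3 are each alone in their block, and the change is carried by the P21 replicate 1 array.

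Most of the Ctss rise fell after P14 by its point estimates, but the steps were not told apart. The change from P7 to P14 was 0.18 (SE 0.13, limma adjusted p = 0.302) and that from P14 to P21 was 0.44 (SE 0.13, adjusted p = 0.0993). The difference between them was 0.25 (SE 0.23, adjusted p = 0.522). Cd68 (1449164_at), a glycoprotein of the lysosome membrane in macrophages, did not pass in any comparison. Its signals were 97.4, 120 and 109 at P7, 113 and 116 at P14, and 102.1, 126 and 75.3 at P21. The highest and the lowest array are both of P21, and the change from P7 to P21 was -0.11 (SE 0.18, 95% interval -0.51 to 0.29, adjusted p = 0.657).

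Aif1 (1418204_s_at) encodes Iba1, a calcium-binding protein of the actin cytoskeleton that is the usual stain for microglia. Its signals were 45.1, 66.4 and 66.7 at P7, 69.8 and 88.6 at P14, and 73.9, 85.3 and 51.4 at P21. Both P14 arrays are above the P7 arrays, and P21 spans both. The changes were 0.36 (SE 0.24, limma adjusted p = 0.292) from P7 to P14 and 0.20 (SE 0.21, adjusted p = 0.506) from P7 to P21.

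B2m, the light chain of class I histocompatibility molecules, was read by 3 probe sets. The brightest, 1452428_a_at, gave 1584, 1606 and 1434 at P7, 1289 and 1476 at P14, and 1923, 1661 and 1430 at P21. The ages overlap, and the change from P7 to P21 was 0.11 (SE 0.12, limma adjusted p = 0.501). For 1449289_a_at the signals were 853, 471 and 501 at P7, 496 and 522 at P14, and 831, 628 and 672 at P21. The P7 replicate 1 array is the highest of all 8, and every P21 array is above every P14 array. Its change from P7 to P21 was 0.26 (SE 0.20, adjusted p = 0.331), and 0.53 (adjusted p = 0.0106) without P7 replicate 1, where it was called.

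The third B2m probe set, 1427511_at, was dim, between 10.9 and 29.8, and within the range of the absent bacterial controls. In the fit with no filter its changes were -0.44 (SE 0.26), 0.42 (SE 0.26) and -0.02 (SE 0.23) from P7 to P14, P14 to P21 and P7 to P21, with limma adjusted p of 0.294, 0.467 and 0.967. All 3 B2m probe sets had a lower mean at P14 than at P7 or P21 (1383 against 1542 and 1672 for the brightest), and none of these steps was called. For 1449289_a_at the lower mean at P14 than at P7 rests on P7 replicate 1, without which the change was 0.066. The tests of the difference between intervals called 0 of the 13 members in limma (1 at an unadjusted p under 0.05, against 25.9% of all), where 8.01% of all probe sets were called.

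**Figure D3:**
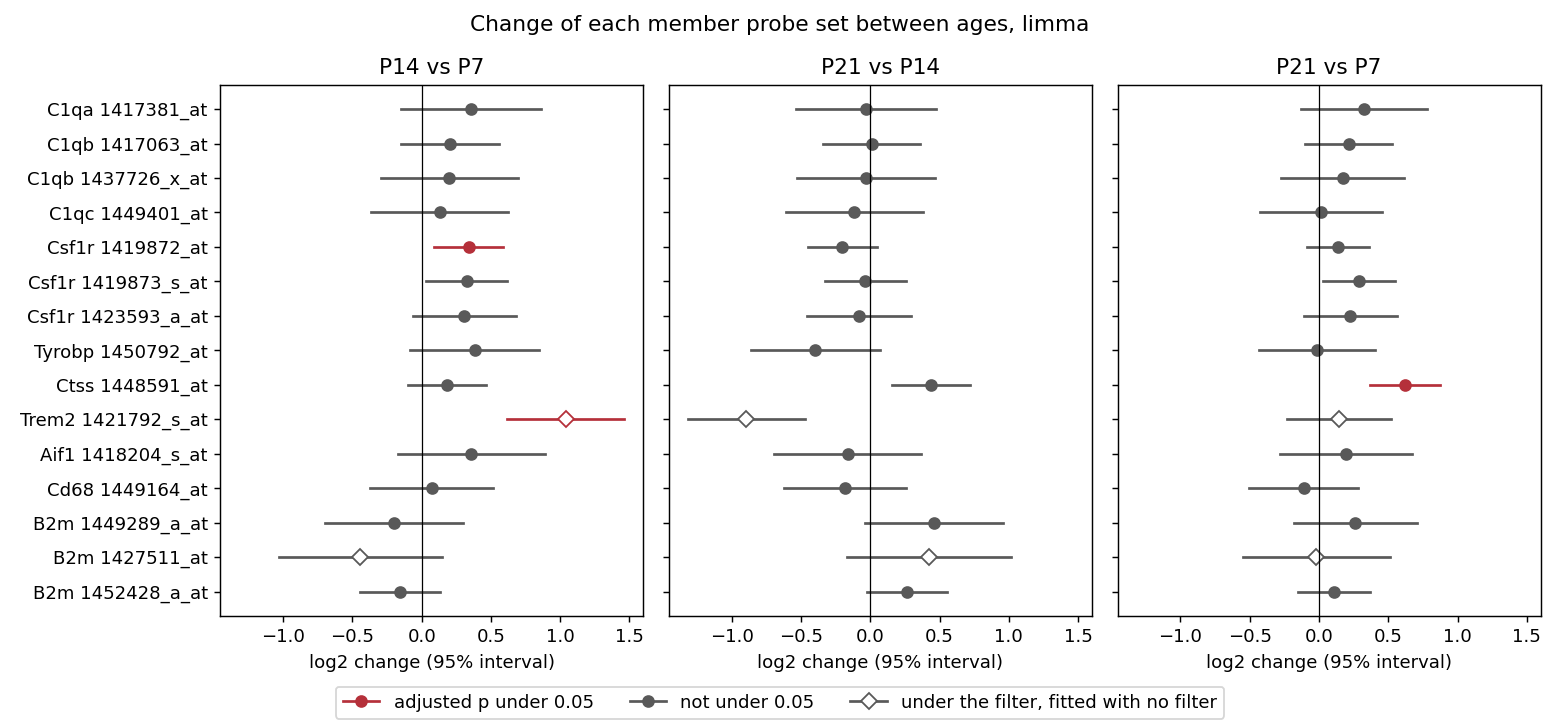
Log2 change with its 95% interval from limma for each probe set between P7 and P14, P14 and P21, and P7 and P21; red marks an adjusted p under 0.05, and open diamonds mark the 2 probe sets fitted with no filter. Red are Csf1r 1419872_at (0.34) and Trem2 (1.04, from P7 signals below the highest absent bacterial control) from P7 to P14 and Ctss (0.62) from P7 to P21, and most other intervals include 0.

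Ages that did not overlap were found for 4 of the 13 members between P7 and P14, namely Csf1r by 1419872_at and 1419873_s_at, Ctss and Aif1, all higher at P14. Over all probe sets tested 58.9% did not overlap, 24.3% being higher at P14. Between P14 and P21 there were 2 of 13 (Ctss and B2m by 1449289_a_at), where the share over all was 38.1%. Between P7 and P21 there were 3 (C1qb by 1417063_at, Csf1r by 1419873_s_at and Ctss), where it was 49.5%.

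Arrays of the same age differed for several members, and the share of the spread that lies within ages was not computed. On P14 replicate 2, 12 of the 13 tested probe sets were higher than on P14 replicate 1, with a median log2 difference of 0.28, while over all probe sets tested 51.1% were higher and the median was 0.00487. The largest were Tyrobp (0.81), C1qc (0.67), C1qb by 1417063_at (0.58) and Csf1r by 1423593_a_at (0.48), outside the range from the 5th to the 95th percentile of all probe sets (-0.44 to 0.42). C1qb by 1437726_x_at was the exception (-0.25). P7 replicate 1 differed in both directions from the mean of P7 replicates 2 and 3, lowest for C1qa (-0.85) and C1qc (-0.60) and highest for B2m by 1449289_a_at (0.80). On P21 replicate 3, 11 of 13 were lower than the mean of P21 replicates 1 and 2, with a median of -0.19 (-0.00825 over all probe sets). Over all probe sets tested 48.5% were higher there. P7 replicates 2 and 3 lay closer, with log2 differences of the 13 from -0.086 to 0.18 and a median of 0.03. For that pair, the 5th to 95th percentile of all probe sets was -0.42 to 0.36.

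These array differences bear on the calls. Without P14 replicate 1, 3 members were called between P7 and P14, Csf1r by 1419872_at, Tyrobp (0.79) and C1qb by 1417063_at (0.50, limma adjusted p = 0.0483), where 15.9% of all probe sets were called. Without P14 replicate 2 limma called none of the 13 (0 of 13) and 15.5% of all, against 29.6% with both arrays. The 18S ribosomal control at its 5' part also set the P14 arrays apart, with signals of 43.6 and 38.6 against 155 to 6137 on the other 6 arrays. The ratio of 3' to 5' signal was 0.782 to 0.904 for Gapdh and 1.01 to 1.17 for beta-actin over the 8 arrays. The part of these controls in the results was not tested.

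**Figure D4:**
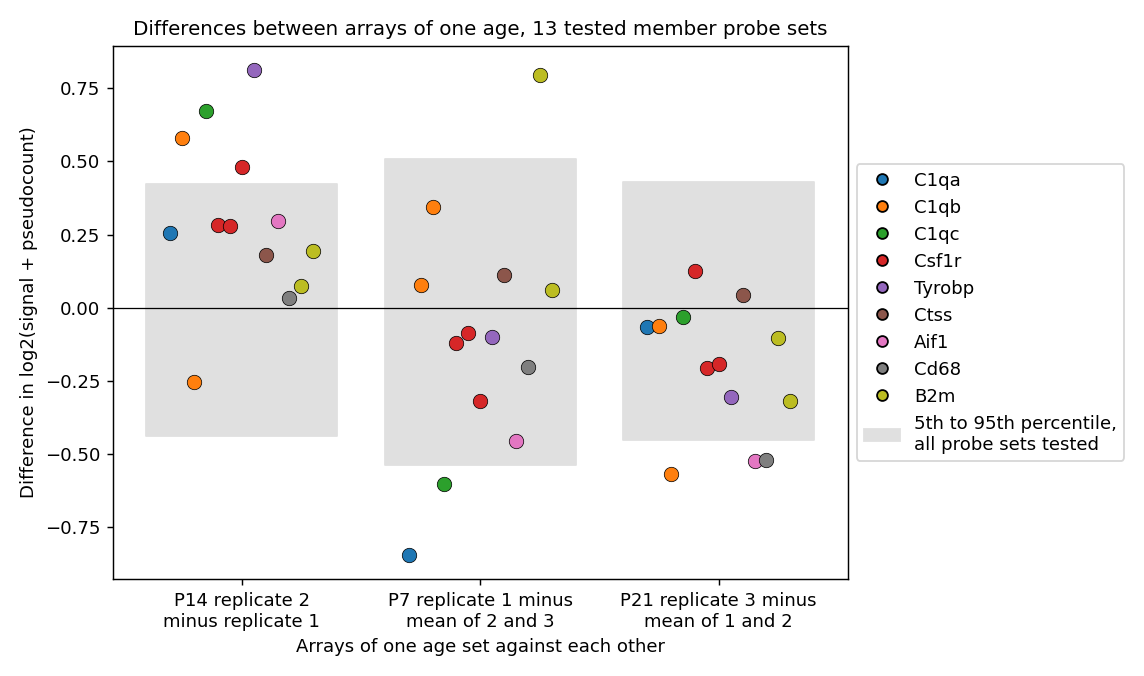
Difference in log2(signal + pseudocount) between arrays of the same age for the 13 tested probe sets (points, coloured by gene), beside the range from the 5th to the 95th percentile of all probe sets tested (grey). P7 replicates 2 and 3 are not set against each other here. On P14 replicate 2 all points but 1 lie above 0, on P7 replicate 1 C1qa and C1qc lie below the grey range and a B2m point above it, and on P21 replicate 3 most points lie below 0.

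The profile of the C1q genes over the arrays was then set against every probe set. The mean log2 profile of the 4 C1q probe sets, centred over the 8 arrays, ran from -0.30 on P7 replicate 1 to 0.26 on P14 replicate 2. Likeness to it was measured as the root mean square difference over the 8 arrays, which share age and array-wide effects. The closest members outside the C1q genes were Csf1r by 1423593_a_at (0.0633, the third closest of 15296) and by 1419873_s_at (0.0796, the eighth), then Csf1r by 1419872_at (0.117) and Aif1 (0.135). The median over all probe sets was 0.305, and a flat profile would give 0.155. Of the C1q probe sets that make up the profile, C1qb by 1417063_at (0.125) was closer to it than a flat profile, and C1qc (0.161), C1qa (0.189) and C1qb by 1437726_x_at (0.253) were farther. Tyrobp (0.197), B2m by 1452428_a_at (0.195) and Cd68 (0.189) were also farther than a flat profile. Ctss (0.272) and B2m by 1449289_a_at (0.387) were farther still. Among probe sets that are no members, 1425262_at (0.0471) and 1437239_x_at (0.0609) were closest, and the table does not name their genes.

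Probe sets of the same gene were compared in the same way. The Csf1r probe sets differed from each other by 0.0975 to 0.137 over the 8 arrays. The C1qb probe sets differed by 0.272, and the B2m probe sets by 0.251 to 0.314. The Csf1r probe sets were therefore closer to each other than those of C1qb or of B2m were.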

How the data were processed

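The members and all lists were chosen with earlier results of these data known. RNA of 8 cochlear nucleus pools was measured on oligonucleotide arrays. The authors deposited 1 intensity per probe set and array, and GCOS, software of the array's maker, is listed among the tools in the submitters' processing notes. The 2%-trimmed mean was 250.1 on every array, so the deposited intensity values had been scaled to a common level. Arrays have no read depth, and their number limits the precision. The 10 channel samples of the spotted cDNA array were not used here.

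Values were rescaled to the common trimmed mean, and log2(intensity + 12.5) was computed from the deposited values. The pseudocount is 0.05 and the filter 0.2 of the trimmed mean. The 64 control probe sets were left out. All 8 arrays entered 1 model with a mean per age in limma 3.58.1 (R 4.3.3), using lmFit and then eBayes, whose prior variance followed the mean signal. The two-sided p-values were adjusted by the method of Benjamini and Hochberg over 15296 probe sets. The procedure was run on simulated data with 200 probe sets changed, at P21 only and by more than any of the 13 tested members changed. That run does not speak to changes as small as those of the members. All members were named by rule. For likeness the rule asked for 5 other probe sets, and only 2 are printed. Alternatives were pseudocounts (2.501 and 50.01), filters, scaling, no trend, replicate and poly-A control blocks, only the 2 ages compared, and each array left out.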

Additional observations from a re-analysis of the deposited data

Results flagged for a closer look

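Trem2 was picked out by its change from P14 to P21 set against that from P7 to P14. Its signals at P7 and P21 lie below the highest absent bacterial control of their arrays, so the sizes of these changes are set by the pseudocount (-2.75 to -0.94 for the difference). In the limma fit with no filter, the change from P14 to P21 minus that from P7 to P14 was -1.93 (SE 0.33, adjusted p = 0.0211), from a change of 1.04 followed by 1 of -0.89, with both P14 arrays above the 6 others. It was called in 11 of 15 alternatives, with adjusted p from 0.0142 to 0.159. Groups of 3 and 2 arrays are too small for a test of outlying arrays.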

How the results depend on the processing

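The count of members called between P7 and P14 (1) was 0 after quantile normalization, with the poly-A control block, with no trend and with only the arrays of these ages, where limma called 26.9%, 24.6%, 28.2% and 32.2% of all probe sets (29.6% as reported). It was 0 to 3 with 1 array left out (15.5% to 31.2% of all), and 0 without both P7 replicate 1 and P14 replicate 2, a setting chosen after seeing the data (12.9%). With no filter it was also 1, but then Trem2 in place of Csf1r. The count between P7 and P21 (1) was 2 after quantile normalization (39.1% of all, 38.6% as reported), 0 with the poly-A control block (12.7%), 1 to 2 with 1 array left out (2 without P7 replicate 1, with B2m, and 35.6% of all) and 2 without both P7 replicate 1 and P14 replicate 2 (32.7%). The count between P14 and P21 was 0 in each of these settings, where at most 3.22% of all probe sets were called, and 0% with the poly-A control block, without P14 replicate 2 and without both arrays. The difference between intervals was called for 0 members and for 1, Trem2, with no filter.

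Whether the replicate numbers pair the arrays could not be settled from 7 pairs. Deviations of same-numbered arrays correlated at -0.04 to 0.28, over 0.1 in 3 of 7 pairs. Their mean was 0.07, and that for arrays of different number was -0.035. Deviations from the mean of an age offset each other, so the second mean is tied to the first and is no separate comparison. With the replicate block the counts called were 1, 0, 1 and 0, as without it, and the Trem2 difference lost its call.

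Some changes turned sign. With the replicate block these were C1qb 1437726_x_at from P14 to P21 (0.10) and between intervals (0.022), Cd68 from P7 to P14 (-0.013) and Csf1r 1419873_s_at from P14 to P21 (0.013). With the poly-A control block they were C1qb 1417063_at (-0.12) and 1437726_x_at (0.33) from P14 to P21, 1437726_x_at between intervals (0.094), C1qc from P7 to P21 (-0.34) and B2m 1427511_at from P7 to P21 (0.11). With quantile normalization they were Tyrobp (0.049) and B2m 1427511_at (0.0092) from P7 to P21.

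With 1 array left out, signs turned within these ranges. From P7 to P14 they were -0.35 to 0.066 for B2m 1449289_a_at, -0.084 to 0.50 for C1qb 1417063_at, -0.20 to 0.47 for C1qc and -0.021 to 0.79 for Tyrobp. From P14 to P21 they were -0.31 to 0.011 for Aif1, -0.16 to 0.095 for C1qa, -0.28 to 0.30 for C1qb 1417063_at, -0.16 to 0.16 for 1437726_x_at, -0.45 to 0.22 for C1qc, -0.18 to 0.10 for Csf1r 1419873_s_at, -0.32 to 0.16 for 1423593_a_at and -0.80 to 0.0079 for Tyrobp. From P7 to P21 they were -0.22 to 0.21 for B2m 1427511_at, -0.19 to 0.13 for C1qc, -0.27 to 0.063 for Cd68 and -0.079 to 0.088 for Tyrobp. Between intervals they were -0.78 to 0.38 for C1qb 1417063_at, -0.49 to 0.024 for 1437726_x_at, -0.92 to 0.42 for C1qc, -0.87 to 0.093 for Csf1r 1423593_a_at and -1.59 to 0.029 for Tyrobp. None of the reversed values was called. The cause of these shifts was not tested.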
